A study of Homo sapiens with 12 samples.

Results

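The genes described here encode collagen XVII, the other parts of the hemidesmosome and laminin-332, and were followed in 2 cell lines with and without silencing of HCP5. They are the 9 rows named COL17A1, DST, ITGA6, ITGB4, LAMA3, LAMB3, PLEC, CD151 and ITGA3 among the 38516 genes of the deposited table. COL17A1 headed the choice because it was higher on silencing in both lines, so its silencing values are given as a description without a test. KYSE150 and KYSE510 are established human cell lines derived from squamous cell carcinoma of the esophagus (ESCC), and RNA was sequenced from 4 groups with 3 libraries each: KYSE150 control, KYSE150 HCP5-silenced, KYSE510 control and KYSE510 HCP5-silenced. All cells grew in the same serum-containing medium. HCP5 is a long non-coding RNA gene, and the series asks what its silencing does to RNA levels. The labels do not name the silencing or control reagent, say whether the silenced cells are a clone or a pool, or say whether libraries of a group came from separate cultures. The p-values therefore measure only the spread between these libraries, which may be technical.

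Hemidesmosomes fasten basal epithelial cells to the basement membrane. Integrin alpha-6 beta-4 and collagen XVII cross the plasma membrane, plectin (PLEC) and the epithelial form of dystonin (DST) tie them to keratin filaments inside the cell, and laminin-332, whose chains include those made from LAMA3 and LAMB3, is their ligand outside. Integrin alpha-3, which pairs with beta-1, also binds laminin-332, and the tetraspanin CD151 associates with both integrins. In squamous epithelium, including that of the esophagus, these proteins mark the basal layer, and inherited loss of most of them causes blistering of the skin.

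Promoter sequences are shown for COL17A1, for the gene whose profile across libraries was most like it among the 9, ITGA6, and for a laminin-332 chain, LAMB3. They come from RefSeq on GRCh38.p14, whose table held promoter entries for 5 of the 9 genes, and only bases upstream of any annotated exon are printed, 5′ to 3′ on the strand of the gene. Capitals mark matches to 4 motifs searched on both strands: the AP-1 site TGANTCA, the E-box CACGTG, the GC box GGGCGG and the TATA box TATAAA. The stretches are chr10:104086003-104086130 (minus strand, 128 bases, COL17A1), chr2:172427086-172427335 (plus strand, 250 bases, ITGA6) and chr1:209652467-209652675 (minus strand, 209 bases, LAMB3).
COL17A1: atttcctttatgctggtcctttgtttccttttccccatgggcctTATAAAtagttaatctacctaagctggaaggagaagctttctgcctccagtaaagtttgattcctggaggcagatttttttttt
ITGA6: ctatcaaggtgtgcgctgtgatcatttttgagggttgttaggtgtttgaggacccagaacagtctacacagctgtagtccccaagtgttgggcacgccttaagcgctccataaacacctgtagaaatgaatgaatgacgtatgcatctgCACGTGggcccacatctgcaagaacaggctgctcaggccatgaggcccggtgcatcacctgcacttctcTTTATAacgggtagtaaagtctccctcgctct
LAMB3: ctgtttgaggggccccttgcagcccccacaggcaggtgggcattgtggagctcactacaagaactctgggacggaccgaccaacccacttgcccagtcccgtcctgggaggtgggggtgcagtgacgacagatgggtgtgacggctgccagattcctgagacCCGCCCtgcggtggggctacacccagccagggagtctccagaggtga
The COL17A1 stretch had a GC content of 39.1%, against a median of 56.2% over the same window of 35116 RefSeq promoters, and held TATAAA 206 to 201 bases before the RefSeq start, a motif present in 5.53% of those windows. The ITGA6 stretch, with a GC content of 50.8% against a median of 58%, held CACGTG 101 to 96 bases before the start (6.34% of windows) and, read as TTTATA on the strand printed, the TATA motif 32 to 27 bases before it (10.7% of windows). The LAMB3 stretch, with a GC content of 64.6% against a median of 57.4%, held the GC box, as CCGCCC, 88 to 83 bases before the start (36.9% of windows). The AP-1 motif was not found in these 3 windows, and no motif was shared by all of them. The 122 bases nearest the COL17A1 start and the 41 nearest the LAMB3 start were not searched, so motifs there would be missed. ITGA6 had 2 promoter entries and LAMB3 had 3, and the most upstream start was used.

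Reads assigned to genes numbered 20035025 to 28202422 per library, and every silenced library of KYSE150 was deeper than every control library of that line. The part of depth in the results below was not tested. HCP5 itself averaged 0.770 ± 0.0220 RPKM (SD, n = 3) in control and 0.437 ± 0.133 in silenced KYSE150 libraries. In KYSE510 it averaged 1.39 ± 0.470 and 0.801 ± 0.257 RPKM. It was lower on silencing in all 6 pairs of same-numbered libraries, but control and silenced libraries overlapped in KYSE510. Its change was not called in KYSE150 (adjusted p = 0.267 by limma, 0.0556 with a replicate block). Nor was it called in KYSE510 (0.646 by limma, 0.134 with the block). RPKM divides the reads of a gene by its exon length and by the depth of the library. In such bulk RNA, fewer cells of a kind and less RNA per cell cannot be told apart. Squamous markers fitted the labels (sum of 8 markers 935 to 2610 RPKM), except PKP1, which was under 0.2 RPKM in KYSE510. Fibroblast and endothelial marker sums were at most 0.901 and 2.09 RPKM, and the leukocyte sum of 29.7 to 47.1 RPKM came from CD68, with PTPRC and CD3E under 0.2 RPKM. All 9 genes passed the filter on low values, which asked for 0.5 RPKM or more in 3 or more libraries, and had from 666 to 85302 reads in a library.

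COL17A1 encodes collagen XVII, the transmembrane collagen of the hemidesmosome (chromosome 10, 104031286 to 104086002, minus strand, GRCh38, 6508 exon bases). In KYSE150 its levels were 53.7, 49.0 and 66.2 RPKM in control replicates 1, 2 and 3 and 94.3, 79.2 and 96.8 RPKM in the silenced ones. In KYSE510 they were 4.25, 4.30 and 4.12 RPKM in the controls and 7.44, 7.94 and 9.65 RPKM in the silenced libraries. Silenced and control libraries did not overlap in either line, although KYSE150 started from a level more than 10 times that of KYSE510. The log2 change, on the log2(RPKM + 0.5) scale used for all changes here, was 0.68 in KYSE150 and 0.90 in KYSE510. By same-numbered pairs the ratio of silenced to control RPKM was 1.76, 1.62 and 1.46 in KYSE150 and 1.75, 1.85 and 2.34 in KYSE510. KYSE510 control replicate 1 held 666 COL17A1 reads, the fewest of any of the 9 genes in any library, and its value of 4.25 RPKM had a Poisson interval of 3.94 to 4.59 RPKM (95%, counting error only).

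**Figure D1:**
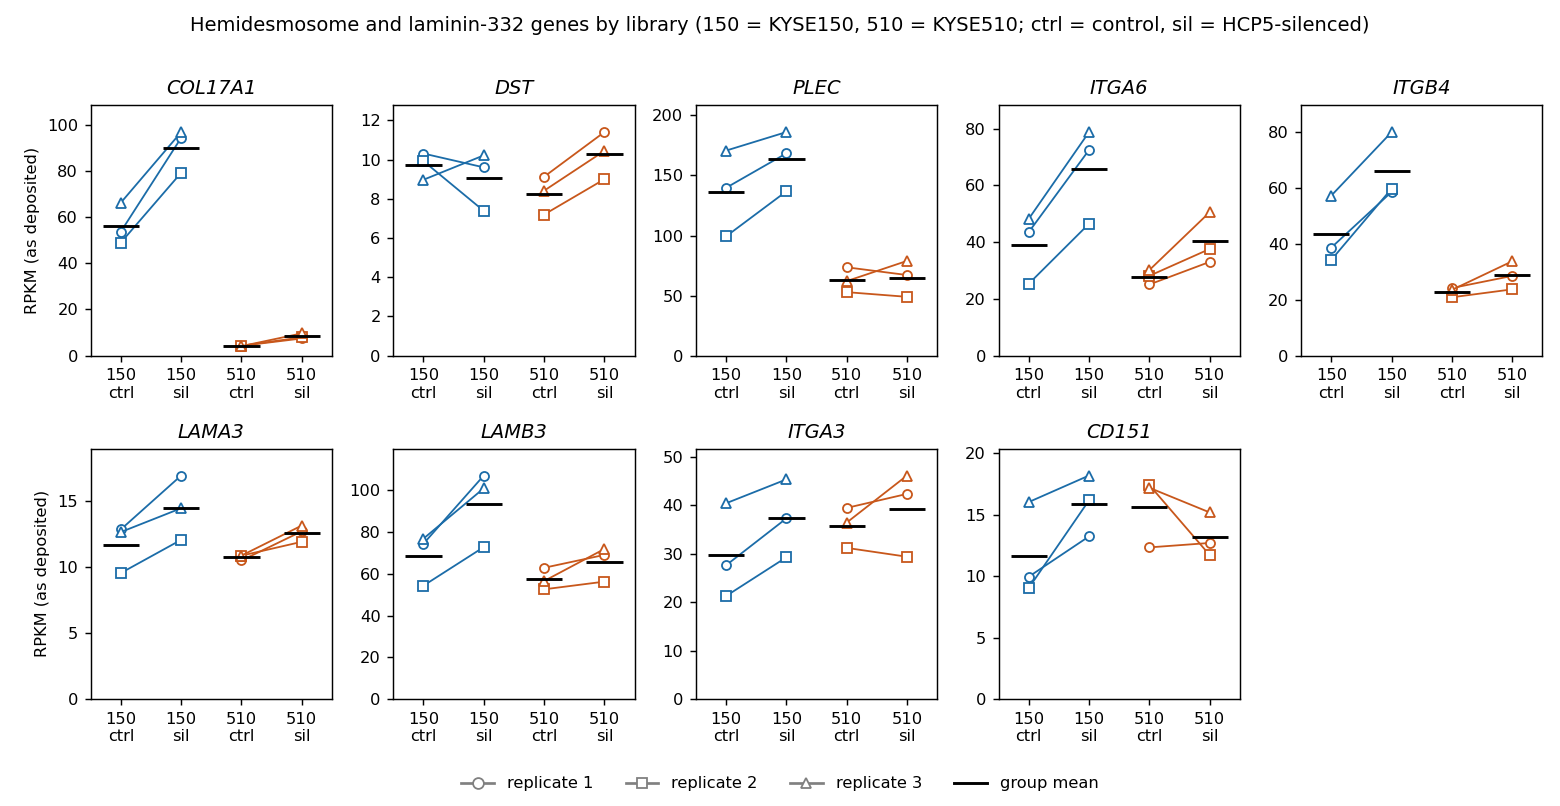
RPKM of the 9 genes in each of the 12 libraries, with a panel per gene whose vertical axis starts at 0; lines join same-numbered control (ctrl) and silenced (sil) libraries, symbols give the replicate and black bars the group means. The 6 lines of COL17A1, ITGA6, ITGB4, LAMA3 and LAMB3 all slope upward, and COL17A1 in KYSE510 lies between 4.12 and 9.65 RPKM against 49.0 to 96.8 RPKM in KYSE150.

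Integrin alpha-6 beta-4 is the laminin receptor of the hemidesmosome. Its alpha chain gene ITGA6 (chromosome 2, 172427354 to 172506282, plus strand) measured 43.6, 25.3 and 48.2 RPKM in KYSE150 controls and 72.5, 46.5 and 78.8 RPKM in the silenced libraries. Replicate 2 was low in both KYSE150 groups, so the groups overlapped, while every pair was higher on silencing, by 1.66, 1.84 and 1.63 times. The log2 change was 0.77 (SE 0.26), with an adjusted p of 0.179 by limma and of 0.0118 (SE 0.08) with a replicate block, the fit that compares same-numbered libraries. In KYSE510, ITGA6 measured 25.1, 28.1 and 30.2 RPKM in controls and 33.1, 37.6 and 50.6 RPKM in silenced libraries. These ranges did not overlap, and the log2 change of 0.51 (SE 0.26) had an adjusted p of 0.851 by limma and 0.0803 with the block.

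ITGB4, the gene of the beta chain (chromosome 17, 75721328 to 75757818, plus strand), pairs with no other alpha chain. It measured 38.8, 34.4 and 57.4 RPKM in KYSE150 controls and 58.7, 59.9 and 80.2 RPKM in silenced libraries. Every silenced library was above every control, silenced replicate 1 by a small margin over control replicate 3. The log2 change was 0.62 (SE 0.19), with an adjusted p of 0.152 by limma, 0.0213 with the block and 0.0288 when KYSE150 control replicate 3 was left out. In KYSE510 it measured 24.2, 20.9 and 23.6 RPKM in controls and 28.6, 23.8 and 33.8 RPKM in silenced libraries, which overlapped. That log2 change was 0.31 (SE 0.19, adjusted p = 0.900 by limma). The ratio of ITGA6 to ITGB4 RPKM was 0.901 ± 0.20 in KYSE150 controls, 0.998 ± 0.229 in KYSE150 silenced, 1.22 ± 0.163 in KYSE510 controls and 1.41 ± 0.225 in KYSE510 silenced libraries (SD, n = 3 each).

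LAMA3 and LAMB3, which encode chains of laminin-332, had log2 changes of 0.19 to 0.44. LAMA3, whose product is the alpha chain that integrins bind (chromosome 18, 23689443 to 23955066, plus strand), measured 12.9, 9.57 and 12.7 RPKM in KYSE150 controls and 17.0, 12.1 and 14.5 RPKM in silenced libraries. Replicate 2 was again the low library of each group. Its log2 change was 0.30 (SE 0.13), with an adjusted p of 0.262 by limma, 0.0424 with the block and 0.146 with the block after centring each library on its median. In KYSE510 it measured 10.5, 10.9 and 10.9 RPKM in controls and 12.7, 11.9 and 13.2 RPKM in silenced libraries, without overlap. The log2 change there was 0.22 (SE 0.13, adjusted p = 0.884 by limma, 0.226 with the block).

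LAMB3, the beta chain gene (chromosome 1, 209614870 to 209652466, minus strand), measured 74.4, 54.4 and 76.9 RPKM in KYSE150 controls and 107, 72.8 and 101 RPKM in silenced libraries. The groups overlapped through replicate 2, and each pair was higher on silencing. Its log2 change was 0.44 (SE 0.17), with an adjusted p of 0.219 by limma, 0.0228 with the block and 0.0674 with block and centring. KYSE510 values were 62.9, 52.6 and 56.6 RPKM in controls and 69.1, 56.3 and 71.9 RPKM in silenced libraries, a log2 change of 0.19 (SE 0.17, adjusted p = 0.942 by limma). RPKM divides by all exon bases of a gene, 13522 for LAMA3 and 4749 for LAMB3, whichever isoforms the cells make. Ratios between genes therefore depend on isoform use, which was not measured. The ratio of LAMB3 to LAMA3 RPKM was 5.84 ± 0.199 in KYSE150 control and 6.44 ± 0.486 in KYSE150 silenced libraries. In KYSE510 it was 5.34 ± 0.587 in control and 5.20 ± 0.421 in silenced libraries (SD, n = 3 each).

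Neither plaque protein gene was called changed in either line. DST (chromosome 6, 56457987 to 56954628, minus strand) encodes the epithelial plaque protein BP230 as well as long neuronal and muscle forms, which its single value sums. It measured 10.3, 9.93 and 8.98 RPKM in KYSE150 controls and 9.61, 7.39 and 10.2 RPKM in silenced libraries, and 9.13, 7.20 and 8.42 against 11.4, 9.0 and 10.4 RPKM in KYSE510. The groups overlapped in both lines. The log2 change was -0.11 (SE 0.13, adjusted p = 0.696 by limma) in KYSE150 and 0.30 (SE 0.13, adjusted p = 0.770) in KYSE510. The ratio of COL17A1 to DST RPKM was 5.84 ± 1.34 in control and 10.0 ± 0.646 in silenced KYSE150 libraries. In KYSE510 it was 0.517 ± 0.0700 and 0.819 ± 0.146 (SD, n = 3 each). DST RPKM divides by 42341 exon bases, those of all its forms, so this ratio depends on which forms the cells make.

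PLEC, the gene of plectin, which links integrin beta-4 to keratin filaments (chromosome 8, 143915147 to 143976734, minus strand), averaged 137 ± 35.8 RPKM in KYSE150 controls and 164 ± 25 RPKM in silenced libraries (SD, n = 3). In KYSE510 it averaged 62.84 ± 10.4 and 65.0 ± 15.1 RPKM. Control and silenced libraries overlapped in both lines, with log2 changes of 0.28 (SE 0.22, adjusted p = 0.508 by limma) and 0.03 (SE 0.22, adjusted p = 1).

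Integrin alpha-3 with beta-1 forms another receptor for laminin-332, and CD151 is a membrane partner of laminin-binding integrins. ITGA3 (chromosome 17, 50055968 to 50090481, plus strand) averaged 29.8 ± 9.75 and 37.3 ± 8.04 RPKM in KYSE150 control and silenced libraries and 35.7 ± 4.18 and 39.3 ± 8.79 RPKM in those of KYSE510 (SD, n = 3). All of these ranges overlapped within a line, with log2 changes of 0.35 (SE 0.24, adjusted p = 0.456 by limma) and 0.12 (SE 0.24, adjusted p = 0.976). CD151 (chromosome 11, 832843 to 839831, plus strand) measured 9.96, 9.04 and 16.0 RPKM in KYSE150 controls and 13.2, 16.2 and 18.2 RPKM in silenced libraries. Its KYSE150 log2 change was 0.46 (SE 0.21), with an adjusted p of 0.277 by limma and of 0.0433 without KYSE150 control replicate 3. In KYSE510 the levels were 12.4, 17.4 and 17.2 RPKM in controls and 12.7, 11.7 and 15.2 RPKM in silenced libraries, a log2 change of -0.23 (SE 0.21, adjusted p = 0.943 by limma). CD151 shared 257 bases, 6.53% of its exon length, with POLR2L and 41 bases (1.04%) with AP006621.8, on the opposite strand. ITGA6 shared 125, 174 and 52 bases (1.91%, 2.66% and 0.80%) with the opposite-strand genes AC078883.3, AC078883.4 and AC093818.1. Since the use of strand in counting is not given in the sources used here, reads of those bases cannot be assigned to either gene.

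Of the 8 genes other than COL17A1, 0 passed the limma threshold (adjusted p under 0.05) in KYSE150, where 0.499% of all 17823 genes tested passed, and 4 had an unadjusted p under 0.05, as did 18.1% of all genes. None passed with voom on the recovered reads. With the replicate block, 4 of the 8 passed as higher (ITGA6, ITGB4, LAMA3 and LAMB3), where 5.04% of all genes did. With block and centring 2 passed (ITGA6 and ITGB4), where 1.86% of all genes did. Without KYSE150 control replicate 3 and without a block, 2 passed (ITGB4 and CD151), and the share of all genes in that fit is not given here. In KYSE510, 0 of the 8 passed by limma (0.0393% of genes passed, 1 of the 8 had an unadjusted p under 0.05, as did 6.35% of genes) and by voom, and 0 with the block (0.0842% of genes). Control and silenced libraries did not overlap, with silenced higher, for 1 of the 8 in KYSE150 (ITGB4), where 13.7% of all genes did so, and for 2 in KYSE510 (ITGA6 and LAMA3), where 5.22% did. The median log2 change of the 8 was 0.40 in KYSE150, against 0.08 for all genes tested and 0.09 for those at least as long as CD151, the shortest of the 9. In KYSE510 it was 0.20, against -0.02 and -0.01. Centring each library on its median lowered every KYSE150 change by 0.13 and raised KYSE510 changes by 0.03, which left the direction of all 9 genes as it was in both lines. After it, the median of the 8 was 0.27 in KYSE150 and 0.23 in KYSE510. Without KYSE150 control replicate 2 the KYSE150 change was 0.48 for ITGA6, 0.16 for LAMA3, 0.29 for LAMB3, 0.07 for PLEC, 0.30 for CD151 and 0.13 for ITGA3. Without KYSE150 control replicate 3 it was 0.46 for PLEC, 0.70 for CD151 and 0.59 for ITGA3. Without KYSE510 silenced replicate 3 the KYSE510 change was 0.34 for ITGA6, 0.19 for ITGB4 and 0.12 for LAMB3.

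**Figure D2:**
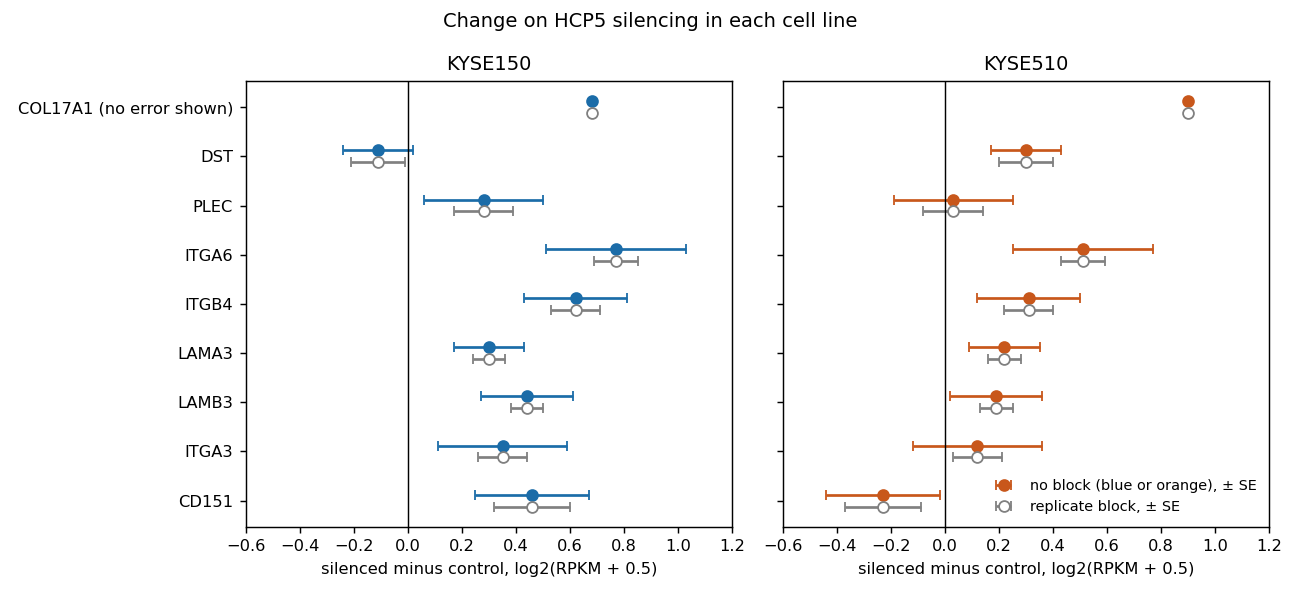
Silenced minus control log2(RPKM + 0.5) for each gene in KYSE150 and KYSE510; filled points are the fit without and open points the fit with a replicate block, bars are ± SE, and COL17A1 is shown without error because it was chosen on these changes. In KYSE150 the bars of ITGA6 shrink from an SE of 0.26 to 0.08 with the block around the same change of 0.77, and the changes of DST and CD151 differ in sign between the panels.

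By same-numbered pairs, ITGA6, ITGB4, LAMA3 and LAMB3 were higher in the silenced library in 6 of 6 pairs, as was COL17A1, for which the choice fixed it. ITGA3 was higher in 5 pairs and DST, PLEC and CD151 in 4. Over all genes tested, 6.7% were higher in 6 of 6 pairs. In KYSE150, replicate 2 was the lowest library for 8 of the 9 genes in controls and for 7 in silenced libraries. In KYSE510 it was the lowest for 5 in controls and 7 in silenced libraries. The share of all genes lowest in replicate 2 was not counted, so these counts cannot be read as particular to the 9 genes. Of the 8 squamous markers 0 passed by limma or by voom in either line, with unadjusted p-values under 0.05 for 4 in KYSE150 and 3 in KYSE510. Over all genes tested, 18.1% and 6.35% had such p-values in KYSE150 and KYSE510. The summed level of the 8 markers ran from 967 to 1563 RPKM in KYSE150 controls and 1213 to 2610 RPKM in silenced libraries, which overlapped. In KYSE510 it ran from 935 to 1160 and from 1291 to 1467 RPKM, which did not overlap. With the block, 6 of the 8 markers passed as higher in KYSE150, where 5.04% of all genes did. With block and centring 2 passed there, where 1.86% of all genes did. In KYSE510, 1 passed with the block, where 0.0842% of all genes did. With block and centring 1 passed there as higher, where 20 of the 17823 genes tested did. The median log2 change of the 8 markers was 0.52 in KYSE150 and 0.26 in KYSE510, and 0.39 and 0.29 after centring. That of the 8 genes other than COL17A1 was 0.40 and 0.20, and 0.27 and 0.23 after centring. The part of these markers in the changes of the hemidesmosome genes was not tested.

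No change on silencing was called different between the lines. Of the 8 genes, 0 passed for the difference by limma, where 0% of all genes did, 1 had an unadjusted p under 0.05, as did 12.2% of all genes, and 0 passed by voom. CD151 had the difference farthest from 0, at -0.69 (KYSE510 minus KYSE150, SE 0.30, 95% interval -1.37 to -0.01, adjusted p = 0.405 by limma, 0.129 with the block). The difference for DST was 0.41 (SE 0.19, adjusted p = 0.408), for ITGB4 -0.31 (SE 0.27, adjusted p = 0.592) and for ITGA6 -0.25 (SE 0.36, adjusted p = 0.751). For COL17A1 the changes of 0.68 and 0.90 stand side by side without a test.

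Between the lines, COL17A1 had the largest difference of the 9 genes. The level in one line against the other was not used to choose the genes, so all 9 were tested. COL17A1 was 13.3-fold higher in KYSE150 than in KYSE510 controls (log2 difference, KYSE510 minus KYSE150, -3.58, SE 0.13, 95% interval -3.87 to -3.29, adjusted p = 9.63e-10 by limma). In silenced cells it was 10.8-fold higher (-3.36, SE 0.13, adjusted p = 1.57e-09). PLEC was 2.17-fold higher in KYSE150 controls (-1.09, SE 0.22, adjusted p = 0.00115) and 2.52-fold higher in silenced cells (-1.34, adjusted p = 0.000253). ITGB4 was 1.90-fold higher in KYSE150 controls (-0.88, SE 0.19, adjusted p = 0.00195) and 2.31-fold higher in silenced cells (-1.19, adjusted p = 0.000218). These 3 genes were the ones of the 9 that passed between controls, all lower in KYSE510, where 33.7% of all genes tested passed as lower. The control libraries are also those of the silencing comparisons, so these results are not independent of each other.

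Between silenced cells 5 of the 9 passed, all lower in KYSE510, where 39.8% of all genes did. The additional genes were ITGA6 (-0.69, SE 0.26, adjusted p = 0.0343) and LAMB3 (-0.49, SE 0.17, adjusted p = 0.0236). Neither passed after median centring (adjusted p = 0.0822 and 0.153), with quantile normalization (0.052 and 0.0591) or with voom (0.0587 and 0.148). The count was 3 without KYSE150 silenced replicate 1, KYSE150 silenced replicate 3 or KYSE510 silenced replicate 2. LAMA3, ITGA3 and DST did not pass in either comparison of lines, with differences from -0.23 (DST, controls) to 0.30 (ITGA3, controls). With quantile normalization DST did pass between silenced cells, at 0.37 against 0.18 (adjusted p = 0.0441). CD151 differed by 0.43 between controls (adjusted p = 0.0914 by limma), and passed with centring (0.0223), quantile normalization (0.0288) and voom (0.0135).

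**Figure D3:**
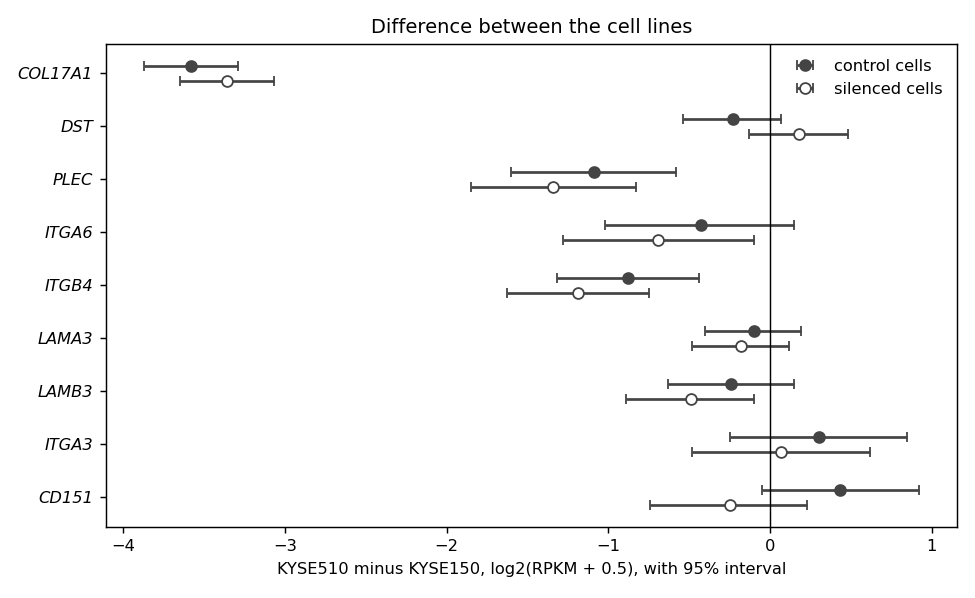
KYSE510 minus KYSE150 log2(RPKM + 0.5) of each gene, in control cells (filled) and silenced cells (open), with 95% intervals. COL17A1 lies at -3.58 and -3.36, apart from PLEC and ITGB4 between -0.88 and -1.34, and the other genes lie nearer to 0.

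By mean RPKM, COL17A1 was 3rd of the 9 genes in both KYSE150 groups and last in both KYSE510 groups. Such an order depends on isoform use, because RPKM divides by the exon bases of all isoforms. In KYSE150 controls the order of mean RPKM was PLEC, LAMB3, COL17A1, ITGB4, ITGA6, ITGA3, LAMA3, CD151 and DST. Only PLEC over LAMB3 and ITGA3 over LAMA3 were neighbours without overlapping libraries. In KYSE150 silenced cells the order was the same except that CD151 came before LAMA3. In KYSE510 controls COL17A1 was the last of the 9, with every library under every DST library, and PLEC and LAMB3 led with overlapping ranges. In KYSE510 silenced cells COL17A1 was again last, but its range of 7.44 to 9.65 RPKM overlapped that of DST. The ratio of COL17A1 to ITGB4 RPKM was 1.32 ± 0.147 and 1.38 ± 0.205 in KYSE150 control and silenced libraries and 0.185 ± 0.0176 and 0.293 ± 0.0375 in those of KYSE510 (SD, n = 3).

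Across the 12 libraries, after subtracting the mean of each line, the gene of the 9 most like COL17A1 was ITGA6 (Pearson r = 0.853), followed by ITGB4 (0.801), LAMA3 (0.777), LAMB3 (0.719), ITGA3 (0.561), PLEC (0.467), DST (0.356) and CD151 (0.265, and 0.042 after median centring). The libraries share the silencing contrast on which COL17A1 was chosen, so these are descriptions, and the median r over 14027 other genes with a mean of at least 1 RPKM was 0.109. Among the 9, the pair with the highest r was PLEC and ITGA3 (0.964), followed by LAMA3 and LAMB3 (0.924), while DST and CD151 had the lowest (-0.452). The 5 genes most like COL17A1 were MT2A (0.959), ZNF532 (0.954), RP11-420L9.5 (0.953), FEZ1 (0.952) and NDRG1 (0.944). MT2A encodes a metallothionein and ZNF532 a zinc finger protein. NDRG1 is a stress- and hypoxia-responsive gene.

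**Figure D4:**
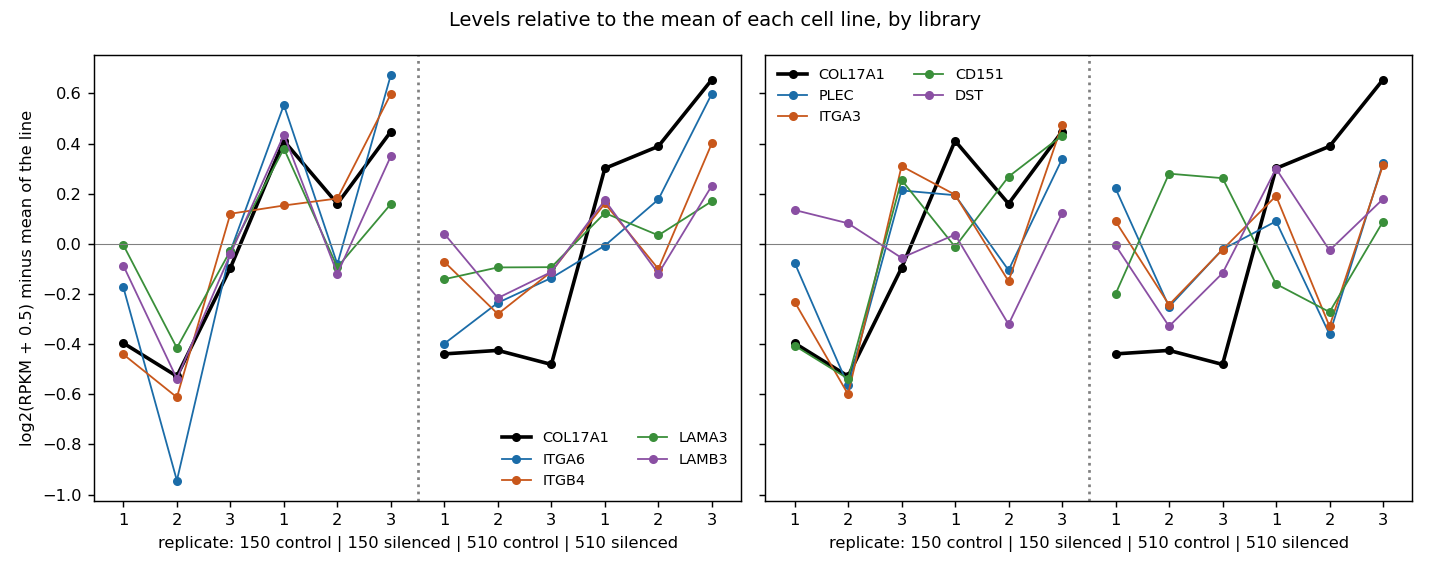
log2(RPKM + 0.5) minus the mean of the line in each of the 12 libraries, with COL17A1 in black in both panels; the dotted line divides KYSE150 (left) from KYSE510 (right). ITGA6, ITGB4, LAMA3 and LAMB3 (left panel, r from 0.719 to 0.853) follow COL17A1 more closely than PLEC, ITGA3, CD151 and DST (right panel, r from 0.265 to 0.561).

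Other genes of the adhesion apparatus were counted by list, and 0 members of any list passed on silencing in either line by limma or by voom. Of 23 other basement membrane genes 14 were tested, with a median log2 change of 0.06 in KYSE150, which turned to -0.07 after centring, and 0.08 in KYSE510. Unadjusted p-values were under 0.05 for 1 and 2 of them, where 18.1% and 6.35% of all genes reached that in KYSE150 and KYSE510. With the block 1 passed in KYSE150, the collagen IV chain gene COL4A5 (adjusted p = 0.0458, and 0.175 with block and centring). Of 17 other matrix receptors and tetraspanins 16 were tested, with medians of 0.34 and 0.07 and unadjusted p-values under 0.05 for 5 and 0. With the block 7 passed as higher in KYSE150, where 5.04% of all genes did. They were the integrin genes ITGA2 and ITGAV, the laminin receptor BCAM, the syndecans SDC1 and SDC4, and the tetraspanins CD9 and CD82. With block and centring 3 of them passed (SDC1, CD9 and CD82), where 1.86% of all genes did. In KYSE510, 0 receptors or tetraspanins passed with the block, where 0.0842% of all genes did. All 14 cytoskeletal anchorage genes were tested, with medians of 0.12, which turned to -0.01 after centring, and 0.04, and unadjusted p-values under 0.05 for 3 and 4.

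KRT14, a basal keratin to which hemidesmosomes attach, measured 28.5, 23.0 and 81.2 RPKM in KYSE150 controls and 127, 91.2 and 369 RPKM in silenced libraries. In KYSE510 it averaged 5.60 ± 1.03 and 17.0 ± 2.65 RPKM (SD, n = 3). Its log2 change was 2.09 (adjusted p = 0.0964 by limma, 0.00793 with the block) in KYSE150 and 1.53 (0.56, 0.0395 with the block) in KYSE510, and near-identical keratin copies leave its read assignment uncertain. With the block KRT14 was the anchorage gene that passed in KYSE510, and KRT5, KRT14 and ILK passed in KYSE150, where centring left KRT14 (KRT5 0.072, ILK 0.154). Over all genes tested, 5.04% passed as higher with the block in KYSE150, 1.86% with block and centring, and 0.0842% with the block in KYSE510. Of 9 proteases that cut collagen XVII or laminin-332, 8 were tested, with medians of 0.21 and 0.13 and unadjusted p-values under 0.05 for 2 and 2. Of all genes tested, 18.1% and 6.35% had such p-values in KYSE150 and KYSE510. With the block MMP14 and PLAU passed as higher in KYSE150 and 0 in KYSE510, and with centring PLAU (0.0193) but not MMP14 (0.0598). Between controls MMP14, a membrane-anchored metalloproteinase, stood at 48.9 RPKM in KYSE150 and 0.247 RPKM in KYSE510 (log2 difference -6.03).

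Between control lines these lists went both ways. Genes that passed the filter on low values in 1 line only were tested because of their values in that line, so they were left out of the counts. They were LAMA4, COL4A4 and FRAS1 of the basement membrane genes, ITGA1 and ITGB6 of the receptors, and TLL1 and MMP14 of the proteases. Of the 14544 genes that passed it within each line, limma called 3648 higher and 5011 lower in KYSE510. Of 11 such basement membrane genes 8 were higher and 3 lower, among them HSPG2, which encodes perlecan (log2 difference 2.21), and the collagen IV chain genes COL4A2 (-1.80) and COL4A1 (-1.45). Of 14 receptors 4 were higher and 4 lower, among them the dystroglycan gene DAG1 (1.68), BCAM (-1.57) and ITGAV (1.19). Of 14 anchorage genes 2 were higher and 7 lower, among them KRT14 (-2.66), the kindlin gene FERMT2 (2.62) and the spectraplakin gene MACF1 (-1.87). Of 6 proteases 1 was higher and 2 were lower, the latter PLAU (-1.64) and the gelatinase gene MMP2 (-1.57). MMP2 lay at 0.236 to 0.332 RPKM in KYSE510 controls, under the filter value, and passed it in that line through silenced libraries. Its difference ran from -2.71 to -1.13 over the alternative settings. The genes named here are those with the largest differences among called genes with a mean of at least 1 RPKM.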

How the data were processed

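RNA-seq of 12 libraries was used as RPKM (reads of a gene divided by its exon length and the library's depth) as the authors deposited them. HISAT2, DESeq and GRCh38 are named in the submitters' processing notes, without roles or versions; the rest of the counting is not given in the sources used here. Multiplying by exon length gave whole reads for 100% of values (within 0.01), and those reads give the depth. No column belonged to a sample outside the labels.

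Genes at 0.5 RPKM or more in 3 or more libraries (17823 of 38516) were fitted on log2(RPKM + 0.5) with limma 3.58.1 in R 4.3.3: 4 group means, a mean-variance trend, 8 residual degrees of freedom, two-sided p-values adjusted by Benjamini-Hochberg over all genes tested, threshold 0.05. Changes on this scale understate those of low genes. The self-test was run on simulated data. Control and silenced libraries share replicate numbers, taken from the titles. In KYSE150, deviations from group means correlated at 0.147 to 0.415 in same-numbered pairs and at -0.385 to 0.184 in other pairs, which overlap. In KYSE510 they correlated at 0.266 to 0.41 and at -0.264 to -0.026. On this ground the numbers were taken to pair libraries. The pairing was inferred from these same data and is not stated in the labels, and the p-values with the block depend on it. The replicate block left 4 residual degrees of freedom.

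The members and lists were chosen with earlier results of these data known. Named are the 9 genes, list members that passed on silencing, otherwise up to 3 per list by difference between control lines among those with a mean of at least 1 RPKM, and the 5 genes most like COL17A1. List members that passed only with the block were named after their values were seen, as was KRT14 in detail. Block with median centring was added after seeing the data. The other alternatives were pseudocounts of 0.1 and 1, no filter, at least 1 RPKM in 6 libraries, median centring, quantile normalization, voom on recovered reads, no trend, the compared groups alone, the block, and each library left out. Some listed genes are not reported here. Gene values sum all isoforms. Exon overlaps were taken from GENCODE release 29 and the deposited exons.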

Additional observations from a re-analysis of the deposited data

How the results depend on the processing

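The counts of the 9 genes changed with the pairing most. In KYSE150 silencing, the count of 0 became 4 with the replicate block, 2 with the block and median centring, and 0 to 2 when each library was left out. Between silenced lines, the count of 5 became 3 with median centring and 3 with voom, and 3 to 5 when each library was left out. The counts for KYSE510 silencing, the difference between lines and the control lines stayed within 1.5 times of their values under every alternative run. The cause of these changes was not tested. Shares of all genes for the fits with a library left out are not given here.

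Directions that turned belonged to changes that did not pass the threshold. The difference in silencing for LAMA3, -0.08, was 0.0764 with median centring, 0.0381 with quantile normalization, 0.0997 with voom and 0.0764 with block and centring, and -0.20 to 0.0539 when each library was left out. LAMA3 between silenced lines was 0.0017 with centring. When each library was left out, the log2 change of DST in KYSE150 ran from -0.20 to 0.0261, of PLEC in KYSE510 from -0.12 to 0.22 and of ITGA3 in KYSE510 from -0.0101 to 0.31. Likewise the difference in silencing ran from -0.48 to 0.0286 for ITGA6, and the difference between silenced lines from -0.0908 to 0.26 for ITGA3. The COL17A1 change in KYSE510 was 1.01 with voom. Fewest reads stood behind COL17A1 in KYSE510, which limits its precision there.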
